A study of Mus musculus with 6 samples.

Results

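The genes described here are 8 lysosomal cathepsins (Ctsb, Ctsc, Ctsd, Ctsh, Ctsk, Ctsl, Ctss and Ctsz) and Prss16, the thymus-specific serine protease. They were taken by name, as proteases that shape peptides for MHC class II, from a count table of 43432 mouse gene IDs, and all 9 were found and all 9 passed the filter on low counts. The RNA came from mTEC, the epithelial cells of the thymic medulla, of 4-week-old C57BL/6 mice. The 3 WT libraries carry the genotype Copa+/+ and the 3 MUT libraries CopaE241K/+, so every mutant library is heterozygous for the E241K allele of the coat protein gene Copa. The allele changes a single amino acid, so the counts of Copa do not check the genotype. The labels name no other allele and no treatment, and nothing in them says how many mice stand behind a library, so the p-values below measure the spread between these libraries, which may be technical.

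Class II molecules leave the endoplasmic reticulum bound to the invariant chain, encoded by Cd74, and lysosomal proteases must cut that chain away and trim antigens before peptides can bind. Cathepsin S does this in dendritic cells and other professional presenting cells, while cathepsin L does it in cortical thymic epithelium, where it and Prss16 help to make the peptides on which CD4+ T cells are positively selected. The aspartic protease cathepsin D and the cysteine protease cathepsin B are broad endopeptidases, and cathepsins C, H and Z are exopeptidases that remove residues from the ends of peptides. COPI, to which Copa belongs, moves vesicles from the Golgi to the endoplasmic reticulum, and cathepsins pass through the same secretory route on their way to the lysosome.

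Of the 9 genes, 6 had a start region in the RefSeq table for GRCm38.p6 (Ctsc, Ctsd, Ctsk, Ctsl, Ctss and Ctsz), and the 250 bases before each RefSeq start were searched on both strands for 2 motifs. These starts are not always those of the GENCODE M21 gene models used for all positions below. The windows of Ctsc, Ctsk, Ctss and Ctsz lie outside the GENCODE genes, 211 of the 250 bases for Ctsd lie inside the gene, and the window of Ctsl lies wholly inside it, beginning 120 bases past the GENCODE start. The first is CACGTG, the core of the element bound by TFEB, a regulator of lysosomal genes, and it stood in 6.02% of the 32851 start regions of that length. The second is the interferon-stimulated response element, read as TTTC, any 2 bases and TTTC, which stood in 2.98% of them. Ctss alone of the 6 held the second, and its region (chr3:95526536-95526785, plus strand, just before the first annotated exon) is shown because the series' title concerns type I interferon in the thymus. The match is in capitals, begins 21 bases before the start and reads on the opposite strand.
Ctss: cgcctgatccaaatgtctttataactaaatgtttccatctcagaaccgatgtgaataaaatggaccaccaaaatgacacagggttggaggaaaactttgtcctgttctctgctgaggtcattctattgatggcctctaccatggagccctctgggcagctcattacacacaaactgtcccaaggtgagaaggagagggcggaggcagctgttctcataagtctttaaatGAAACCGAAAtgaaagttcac

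Ctsd held CACGTG at 2 places and Ctsl at 1, and the other 4 regions held none. The stretches of 30 bases around them are shown to set these genes beside the lysosomal genes described later, with the motif in capitals. They lie at chr7:142388048-142388077 and chr7:142387908-142387937 for Ctsd and at chr13:64370739-64370768 for Ctsl, all on the minus strand. Only the distal Ctsd stretch lies before the GENCODE start. The proximal one lies in a GENCODE exon of Ctsd, and the Ctsl stretch lies inside the gene with 15 of its 30 bases in an exon. A match of letters is a description and no measure of binding.
Ctsd, distal: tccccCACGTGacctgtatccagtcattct
Ctsd, proximal: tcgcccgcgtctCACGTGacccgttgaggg
Ctsl: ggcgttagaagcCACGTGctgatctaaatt

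The libraries held 19934513 to 23366238 counts, of which mitochondrially encoded genes took 9.14% to 21.3%. Medullary and epithelial markers were counted in each library. The antigen-display regulator Aire lay between 929 and 1563 CPM (a gene's counts scaled to library size, with TMM factors). The epithelial adhesion gene Epcam lay between 418 and 751 CPM. The 8 medullary markers (Aire, Fezf2, Epcam, Cd80, Krt5, Krt14, Tnfrsf11a and Cd40) summed to 3152 to 4750 CPM in WT and 3244 to 3812 CPM in MUT. Epcam was lower in every MUT library than in every WT library (unadjusted edgeR p 0.12), a pattern seen in 3.96% of all genes tested. Markers of other cells were also counted, among them the leukocyte gene Ptprc at 24.3 to 384 CPM and the cortical proteasome gene Psmb11 at 4.71 to 30.2 CPM. In such bulk samples fewer cells of a type and less RNA per cell cannot be told apart.

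None of the 9 protease genes differed between genotypes beyond the spread between libraries. In edgeR's quasi-likelihood test with Benjamini-Hochberg adjustment over 17172 genes, 0 of 9 passed an adjusted p of 0.05, against a background of 0% of all genes tested, and each had an adjusted p of 0.999875. At an unadjusted p under 0.05 there were 0 of 9, against 3.48% of all genes, and DESeq2 and limma-voom each called 0 of 9 as well, with DESeq2 calling 0.402% of 28820 genes. MUT and WT libraries overlapped for all 9, whereas 9.35% of all genes tested had genotypes that did not overlap (5.39% with MUT above WT and 3.96% with MUT below WT). Fitted log2 fold changes (MUT minus WT) lay above 0 for 5 of the 9 and below 0 for 4, with a median of 0.10, beside a median of -0.01 over all genes tested. The median standard error (SE) of their log2 fold change was 0.42, against 1.03 over all genes, though that of Ctsk was 1.06. The median SD of log2(CPM + 1) over the 6 libraries was 0.59 for the 9 and 0.93 over all genes tested. It was 0.71 over the 9019 tested genes with a mean CPM at or above the lowest of the 9. For each of the 9 proteases the 95% interval, given below, includes 0 and also changes in both directions.

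**Figure D1:**
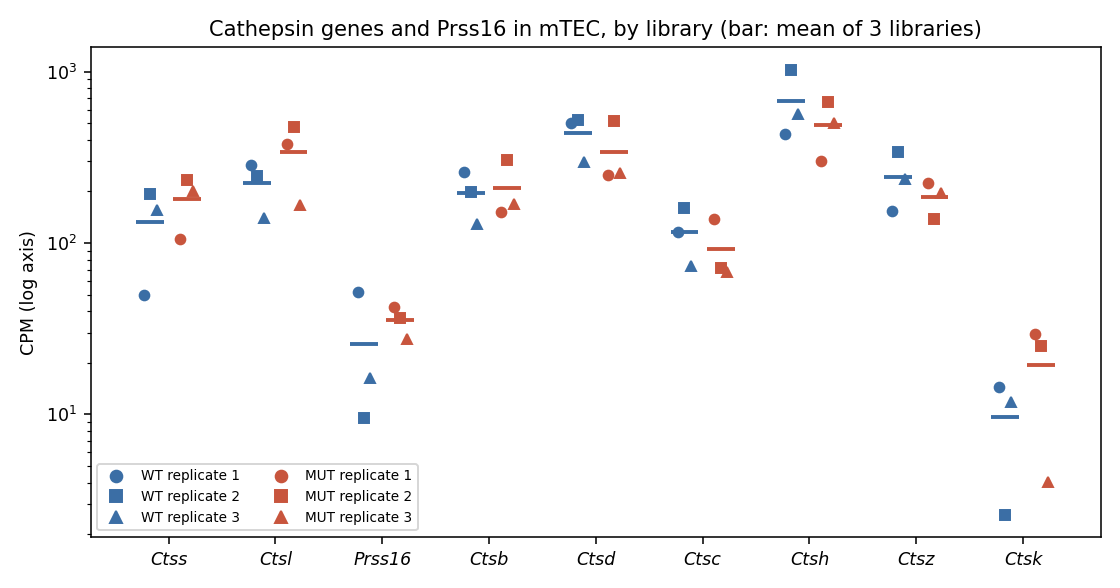
CPM on a log axis for each of the 9 genes in the 3 WT (blue) and 3 MUT (red) libraries, with the replicate number as symbol and the group mean as a bar. WT and MUT points interleave for every gene, and the widest scatter is that of Ctsk, from 2.59 to 29.4 CPM.

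Ctss, the invariant-chain protease of professional presenting cells, was fitted somewhat higher in MUT, by an amount that was near 0 without WT library 1. Ctss (ENSMUSG00000038642, GRCm38 chromosome 3, 95526786 to 95556403, plus strand) measured 49.98, 193 and 157 CPM in WT libraries 1, 2 and 3. The MUT values, in the same order, were 105, 232 and 202 CPM. WT library 1 was the lowest of the 6, and the other WT libraries lay among the MUT libraries. WT averaged 133 ± 74.4 CPM and MUT averaged 180 ± 66.4 CPM (SD over 3 libraries, here and below), with a log2 fold change of 0.43 (SE 0.50, 95% interval -0.66 to 1.52). With single libraries left out it ran from 0.03 without WT library 1 and 0.19 without MUT library 2 to 0.70 without MUT library 1 and 0.78 without WT library 2.

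Ctsl, the counterpart in cortical epithelium, had the smallest p of the 9 genes, at an unadjusted 0.18 in edgeR's test. Ctsl (ENSMUSG00000021477, chromosome 13, 64359337 to 64370890, minus strand) measured 284, 245 and 140 CPM in the WT libraries 1 to 3 and 380, 472 and 166 CPM in MUT. MUT libraries 1 and 2 stood above every WT library, while MUT library 3 fell between WT libraries 2 and 3. Means were 223 ± 74.5 CPM and 339 ± 157 CPM, and the log2 fold change was 0.60 (SE 0.42, 95% interval -0.32 to 1.53). It was 0.29 without MUT library 2, 0.36 without WT library 3 and 0.93 without MUT library 3.

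Prss16, a serine protease named for its restriction to the thymus, chiefly its cortex, had the second largest SD of log2(CPM + 1) over the 6 libraries, 0.88, after Ctsk at 1.25. Prss16 (ENSMUSG00000006179, chromosome 13, 22002173 to 22009742, minus strand) measured 51.8, 9.51 and 16.2 CPM in WT and 42.6, 36.5 and 27.5 CPM in MUT libraries 1 to 3. The 3 MUT libraries lay close together, between WT library 1 above them and WT libraries 2 and 3 below. The log2 fold change was 0.46 (SE 0.74, 95% interval -1.16 to 2.07), on means of 25.8 ± 22.7 CPM in WT and 35.5 ± 7.61 CPM in MUT. It ran from 0.05 without WT library 2 to 1.46 without WT library 1, and was 0.21 without WT library 3 and 0.31 without MUT library 1.

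Cortical markers are given here because both Prss16 and Ctsl are known from the cortex. Psmb11, the thymoproteasome subunit of cortical epithelium, measured 4.71, 20.4 and 6.38 CPM in WT and 6.46, 30.2 and 4.84 CPM in MUT. Its highest values were in the libraries numbered 2, of which WT library 2 was the lowest for Prss16. Of 7 cortical markers (Psmb11, Ly75, Cxcl12, Enpep, Ccl25, Dll4 and Tbata), 0 passed edgeR's test, 4 had fitted values above 0, and none was at 0 in any library. Their summed level ran from 846 to 1248 CPM in WT, beside 763 to 1569 CPM in MUT. Ly75, the endocytic receptor DEC-205, measured 56.5 ± 14.3 CPM in WT against 58.1 ± 16.2 CPM in MUT. The part of cortical cells in the Prss16 and Ctsl values was not tested.

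Ctsb and Ctsd, the broad endopeptidases, had SDs of 0.47 and 0.53 on the log2(CPM + 1) scale over the 6 libraries. Ctsb (ENSMUSG00000021939, chromosome 14, 63122462 to 63145923, plus strand) measured 259, 199 and 129 CPM in WT against 151, 306 and 169 CPM in MUT. The genotypes interleaved, with the highest value in MUT library 2 and the lowest in WT library 3. Its log2 fold change of 0.10 (SE 0.40, 95% interval -0.77 to 0.96) turned to -0.13 without WT library 3 and to -0.29 without MUT library 2. The annotated end of the gene overlaps Fdft1 on the opposite strand, and since the strand setting of the counting is not given in the sources used here, some reads may belong to that neighbour.

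Ctsd (ENSMUSG00000007891, chromosome 7, 142375911 to 142388038, minus strand) measured 504, 519 and 298 CPM in WT against 248, 517 and 255 CPM in MUT. In each genotype the libraries split, with WT libraries 1 and 2 and MUT library 2 high and the other 3 low. The log2 fold change was -0.37 (SE 0.37, 95% interval -1.19 to 0.45), on means of 440 ± 124 and 340 ± 154 CPM. It was -0.81 without MUT library 2, -0.59 without WT library 3, -0.19 without MUT library 1, -0.21 without MUT library 3 and -0.25 without WT library 2.

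The 3 exopeptidase genes, Ctsc, Ctsh and Ctsz, all had fitted values below 0. Ctsc, or dipeptidyl peptidase I, which removes pairs of residues and activates granule serine proteases (ENSMUSG00000030560, chromosome 7, 88278085 to 88310888, plus strand), measured 115, 159 and 73.9 CPM in WT and 137, 71.5 and 67.3 CPM in MUT. MUT libraries 2 and 3 lay just under WT library 3 and MUT library 1 between the other WT libraries. Its log2 fold change was -0.34 (SE 0.46, 95% interval -1.33 to 0.66), but -0.05 without WT library 2. It was -0.75 without MUT library 1, -0.58 without WT library 3, -0.19 without MUT library 2 and -0.16 without MUT library 3.

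Ctsh is an aminopeptidase. Its gene (ENSMUSG00000032359, chromosome 9, 90054152 to 90076089, plus strand) measured 430, 1026 and 563 CPM in WT against 302, 664 and 502 CPM in MUT. WT library 2 stood apart at the top and MUT library 1 was lowest. The log2 fold change of -0.46 (SE 0.39, 95% interval -1.31 to 0.39) went to -0.03 without WT library 2 and to -0.21 without MUT library 1. It was -0.70 without WT library 1 and -0.75 without MUT library 2.

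Ctsz, a carboxypeptidase (ENSMUSG00000016256, chromosome 2, 174427493 to 174439039, minus strand), measured 154, 338 and 236 CPM in WT against 223, 139 and 196 CPM in MUT. WT libraries 2 and 3 were the 2 highest, and WT library 1 fell among the MUT libraries. It had the smallest SD on the log2(CPM + 1) scale over the 6 libraries, 0.46. Its log2 fold change was -0.39 (SE 0.38, 95% interval -1.21 to 0.43), and ran from -0.63 without WT library 1 to -0.22 without MUT library 2 and -0.09 without WT library 2. Nelfcd overlaps its last bases on the opposite strand, as the lincRNA gene Gm26522 overlaps Ctsc.

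Ctsk, the collagen-degrading cathepsin of osteoclasts that fibroblasts also make, was the least steady gene. Ctsk (ENSMUSG00000028111, chromosome 3, 95499256 to 95509362, plus strand) had 252, 55 and 269 counts in WT and 623, 522 and 111 in MUT. These correspond to 14.5, 2.59 and 11.8 CPM in WT and 29.4, 25.005 and 4.01 CPM in MUT, an 11.3-fold range over the 6 libraries. MUT libraries 1 and 2 were the highest and MUT library 3 the second lowest. The log2 fold change was 1.01 (SE 1.06), with a 95% interval from -1.29 to 3.32 that covers a large change in either direction. It was 0.56 without WT library 2, 0.59 without MUT library 1 and 1.49 without MUT library 3.

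Fibroblast markers are given beside it. Of 9 such markers (Pdgfra, Pdgfrb, Col1a1, Col1a2, Col3a1, Col6a1, Dcn, Lum and Postn), 0 passed edgeR's test and 5 had fitted values above 0. Their summed level was 242, 128 and 162 CPM in WT libraries 1 to 3 and 218, 205 and 199 CPM in MUT. The library lowest in Ctsk, WT library 2, was also lowest in this sum, whereas MUT library 3 was low in Ctsk and not in the sum. Col1a1 measured 21.8 ± 12.9 CPM in WT against 21.5 ± 13.3 CPM in MUT, Pdgfra was between 0.047 and 13.8 CPM, and Col1a2, Col3a1 and Lum were at 0 in at least 1 library. The part of fibroblasts in the Ctsk values was not tested.

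**Figure D2:**
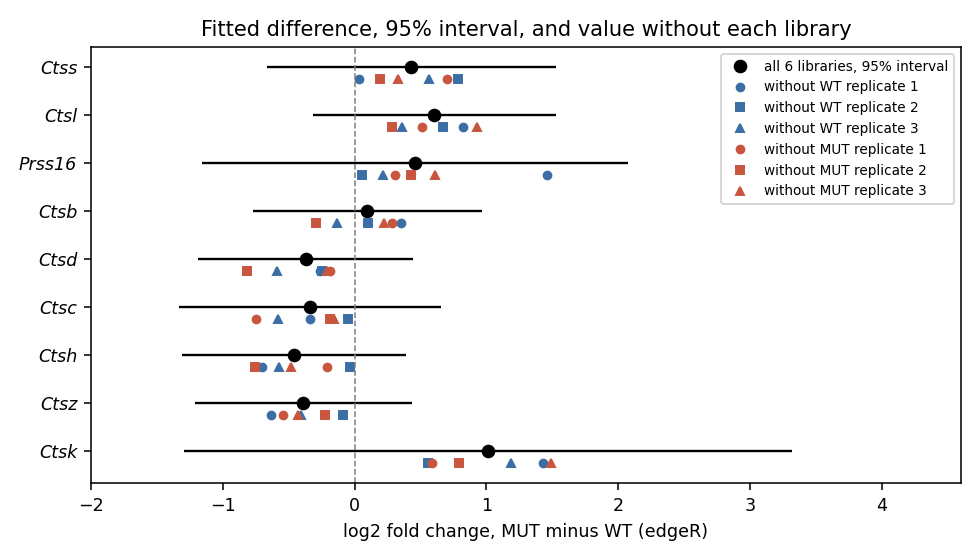
Fitted log2 fold change (MUT minus WT, edgeR) of each gene as a black point with its 95% interval as a line, and the value without each library as small coloured symbols below it. Every interval crosses 0, and Ctsb is the gene whose sign turned when 1 library was left out, in 2 of the 6 cases.

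Levels can be compared between genes only per length, so CPM were divided by the length in kb of all annotated exons of a gene merged. Over the 6 libraries the mean was highest for Ctsd, at 166 ± 57.9 CPM per kb (SD, n = 6, both genotypes together), followed by Ctsz at 149 ± 49.6, Ctsh at 129 ± 55.5 and Ctss at 115 ± 50.1. The ranges of these 4 genes overlapped, and Ctsd stood above Ctsz in only 2 of 6 libraries, so their order is not resolved. Ctsl at 43.3 ± 19.6 and Ctsb at 33.4 ± 11.2 CPM per kb formed the next step, with Ctsl below Ctss in 5 of 6 libraries and above Ctsb in 5 of 6. Ctsc followed at 17.9 ± 6.72, below Ctsb in 6 of 6 libraries. Ctsk at 9.62 ± 7.19 and Prss16 at 7.33 ± 3.84 CPM per kb were lowest, each above the other in 3 of 6 libraries.

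This order depends on the length used. Ctsl, whose longest annotated transcript has 6168 bases, has a merged exon length of 6489 bases, against 1971 for its best-supported principal transcript. With principal transcripts, a choice made after seeing the data, Ctsh led at 359 ± 154 CPM per kb, Ctsd stood at 183 ± 64.0, Ctsz at 149 ± 49.6 and Ctsl at 143 ± 64.4, now above Ctss at 115 ± 50.2. Ctsb at 42.6 ± 14.3 and Ctsc at 41.8 ± 15.7 nearly coincided, so the step between them seen with merged exons was lost. Prss16 at 14.2 ± 7.44 then lay above Ctsk at 9.62 ± 7.19. Comparisons between genotypes of a single gene or of a ratio of 2 genes do not depend on it, since the length is the same in both groups.

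**Figure D3:**
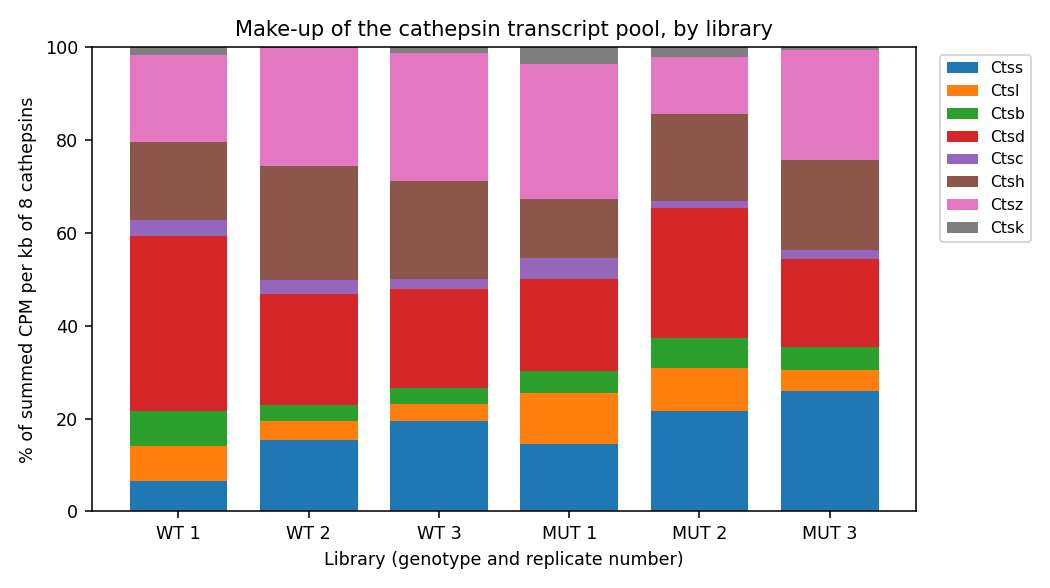
Share in percent of each of the 8 cathepsin genes in their summed CPM per kb (merged exon length), as stacked bars, 1 per library. Ctss took 6.46% in WT library 1 and 14.6% to 25.98% in the others, while Ctsd, Ctsh and Ctsz together made up most of every bar.

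The make-up of the cathepsin pool varied among the libraries of each genotype, and the genotypes overlapped for Ctss and for Ctsl. Ctsd took 19.0% to 37.6% of the summed level per kb, Ctsz 12.2% to 29.1%, Ctsh 12.7% to 24.6% and Ctss 6.46% to 25.98%. Ctss averaged 13.7% ± 6.62 in WT and 20.7% ± 5.77 in MUT, and Ctsl 5.14% ± 2.23 and 8.25% ± 3.38. The summed level of the 8 genes was 570, 926 and 594 CPM per kb in WT and 531, 787 and 572 in MUT, with library 2 the highest in both genotypes. Its mean log2 difference, MUT minus WT, was -0.13 (two-sided, exact permutation of genotypes in all 20 ways, p = 0.6, where the design can reach no p below 0.1). Without WT library 2 the difference was 0.09.

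Ratios within a library are free of its scaling. Ctsl stood to Ctss as 1.19, 0.265 and 0.187 in WT libraries 1, 2 and 3 and as 0.757, 0.426 and 0.172 in MUT. The highest and nearly the lowest of these came from the same genotype, and the mean log2 ratio was -1.36 ± 1.42 in WT and -1.39 ± 1.08 in MUT (exact permutation p = 1.0). With principal transcripts the same libraries gave 3.91, 0.872 and 0.616 in WT and 2.49, 1.40 and 0.566 in MUT, so that Ctsl lay above Ctss in WT library 1 and below it in WT libraries 2 and 3 and MUT library 3 on both scales. In MUT libraries 1 and 2 the order depended on the length used. Prss16 stood to Ctsl as 0.282, 0.060 and 0.180 in WT and 0.174, 0.120 and 0.256 in MUT, with a mean log2 difference of 0.27 (exact permutation p = 0.9). Over the 4 permutation tests made, every Benjamini-Hochberg adjusted p was 1.0.

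**Figure D4:**
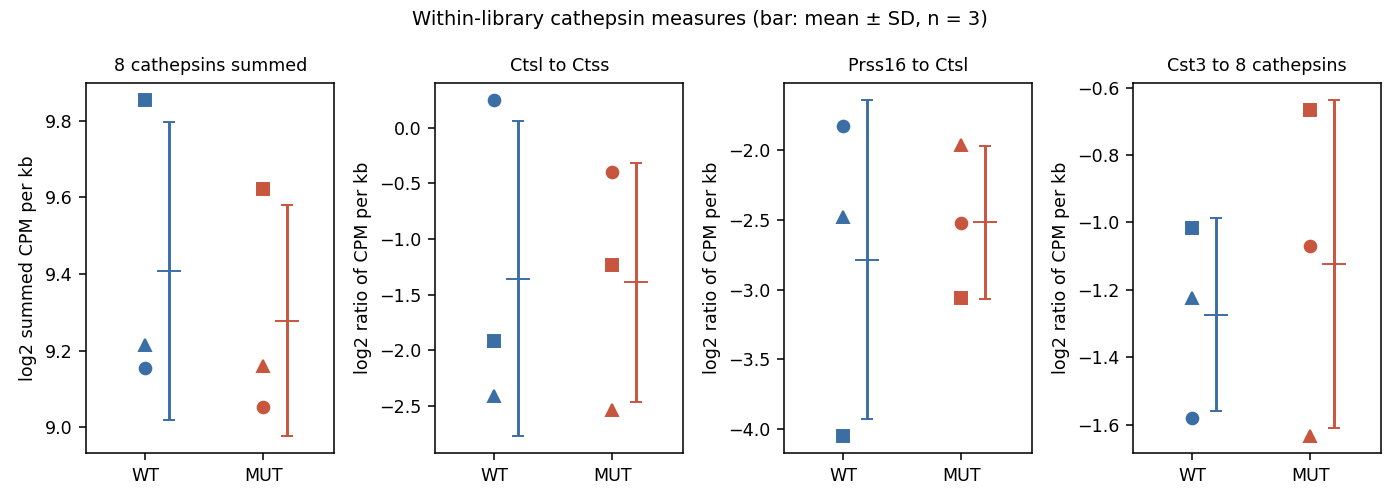
Log2 of the summed cathepsin level and of 3 ratios of CPM per kb, by genotype, with the replicate number as symbol and the mean ± SD (n = 3) beside it. WT and MUT overlap in all 4 panels, and the Ctsl to Ctss ratio spans -2.42 to 0.25 in WT and -2.54 to -0.40 in MUT.

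No inhibitor of the cysteine cathepsins passed the test. The list held 23 matched genes, of which 19 passed the filter on low counts, 0 passed edgeR's test and 12 were fitted above 0 (list median 0.10 on the log2 scale). Cst3, which encodes the secreted inhibitor cystatin C, measured 241, 580 and 322 CPM in WT against 320, 628 and 233 CPM in MUT. Its ratio to the summed cathepsins was 0.334, 0.495 and 0.428 in WT against 0.476, 0.631 and 0.322 in MUT, and the mean log2 difference was 0.15 (exact permutation p = 0.8). Cstb, the cytosolic inhibitor stefin B, measured 299 ± 132 CPM in WT against 245 ± 111 CPM in MUT.

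Serpina3g, a serpin that inhibits lysosomal cysteine proteases, measured 107 ± 73.2 CPM in WT against 114 ± 33.4 CPM in MUT, with its highest value, 191 CPM, in WT library 1. Cst6, cystatin M, measured 52.4 ± 19.3 and 32.9 ± 9.12 CPM. Ctla2a, whose product resembles a cathepsin propeptide, had the smallest p of the list, 0.15 unadjusted. It had 114, 30 and 37 counts in WT and 16, 2 and 6 in MUT. Every MUT library, at 0.096 to 0.755 CPM, lay below every WT library, at 1.41 to 6.55 CPM. The log2 fold change was -3.15 (SE 2.03) and ran from -4.30 without MUT library 1 to -2.08 without WT library 1. Ctla2a was the 1 of 19 tested inhibitors whose genotypes did not overlap, where 9.35% of all genes tested did not. The neighbouring copy Ctla2b was counted in 2 libraries, with 166 counts in WT library 3 and 38 in MUT library 3, and reads of the 2 copies may have been divided between them.

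The other cathepsins that passed the filter on low counts were Ctsa, Ctse, Ctsf, Ctso, Ctsq and Ctsw. Of 15 matched genes these 6 were tested, 0 passed edgeR's test and 4 of the 6 had fitted values above 0. Ctsa, protective protein, measured 109 ± 54.0 CPM in WT against 98.3 ± 56.5 CPM in MUT. Ctse, an aspartic protease of epithelia and presenting cells, ranged widely, with 3.50, 137 and 63.3 CPM in WT and 20.05, 228 and 32.7 CPM in MUT. Ctso had the smallest p of these, 0.18 unadjusted, with 31.6 ± 11.4 CPM in WT, 56.0 ± 26.4 CPM in MUT and a log2 fold change of 0.83 (SE 0.59, from 0.37 without MUT library 3 to 1.11 without WT library 3). Ctsf measured 14.3 ± 9.91 and 15.7 ± 4.53 CPM, and Ctsw, of cytotoxic lymphocytes, 0 to 8.24 CPM.

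Among 28 other lysosomal hydrolases and membrane proteins, all tested, 0 passed edgeR's test, 8 had fitted values above 0 and 20 below, with a median log2 fold change of -0.33. Over all genes tested, 49.4% were fitted above 0 and 3.48% had an unadjusted p under 0.05 in edgeR's test. Of the 28, 2 lay under that p, of which Lgmn is described here. Lgmn, the asparaginyl endopeptidase that makes early cuts in the invariant chain and in antigens, measured 53.0, 13.7 and 6.29 CPM in WT and 4.01, 4.65 and 6.22 CPM in MUT. All MUT libraries lay below all WT libraries, but WT library 3 and MUT library 3 differed by little. Lgmn was the 1 of the 28 genes whose genotypes did not overlap, where 9.35% of all genes tested did not. The log2 fold change of -2.29 (SE 1.05, unadjusted p 0.049, adjusted p 0.999875) ran from -2.75 without WT library 3 to -1.01 without WT library 1.

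Ifi30, the interferon-inducible thiol reductase that opens disulphide bonds of antigens for the cathepsins, measured 192, 244 and 171 CPM in WT against 161, 278 and 144 CPM in MUT, and its log2 fold change was -0.06 (SE 0.37). The lysosomal membrane proteins Lamp1 and Lamp2 measured 676 ± 96.6 and 425 ± 134 CPM in WT and 544 ± 84.6 and 370 ± 22.7 CPM in MUT. For sorting and biogenesis, 0 of 15 genes passed, 5 were fitted above 0, and the median was -0.12. The mannose-6-phosphate receptors, which carry new cathepsins to the lysosome, measured 159 ± 56.1 and 130 ± 49.4 CPM (M6pr) and 82.9 ± 18.9 and 94.4 ± 26.1 CPM (Igf2r). Gnptab, which makes the tag they read, measured 37.8 ± 11.2 and 46.2 ± 10.3 CPM, and Tfeb 8.58 ± 3.17 and 4.65 ± 1.29 CPM. Vps29, a retromer subunit, had the smallest p, 0.14 unadjusted, with a log2 fold change of -1.22 (SE 0.76, from -1.97 without MUT library 3 to -0.21 without WT library 2).

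The vacuolar proton pump, which acidifies the lysosome and so permits cathepsin activity, had 0 of 16 genes past edgeR's test, 5 fitted above 0 and 11 below, with a median of -0.34. Atp6v0e had the smallest p, 0.030 unadjusted, and was the 1 subunit of 16 under 0.05, where 3.48% of all genes tested were. It measured 231, 465 and 178 CPM in WT against 102, 200 and 115 CPM in MUT, so that MUT library 2 lay above WT library 3. Its log2 fold change was -1.07 (SE 0.43, from -1.43 without MUT library 2 to -0.57 without WT library 2). Of the 16 subunits, 1 other had every MUT library below every WT library, a pattern seen in 3.96% of all genes tested.

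**Figure D5:**
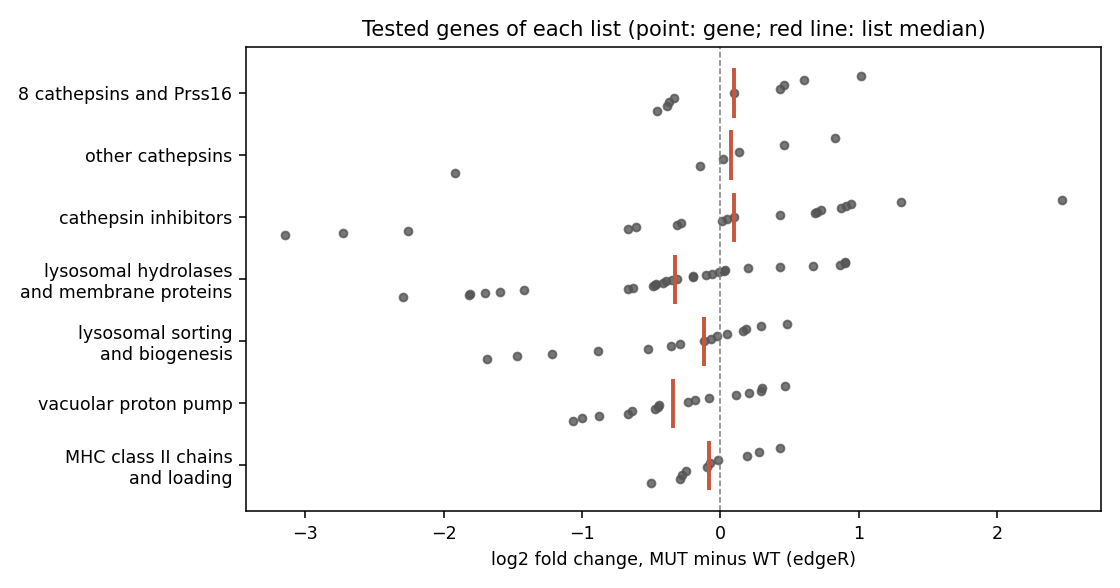
Log2 fold change (MUT minus WT, edgeR) of each tested gene, as points, in the 9 proteases and in 6 lists of related genes, with each list's median as a red line. Medians ran from -0.34 for the proton pump to 0.10 for the 9 proteases and the inhibitors, and no gene plotted passed an adjusted p of 0.05.

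Of the class II chains and loading genes, 0 of 10 passed edgeR's test, 3 were fitted above 0 and the median log2 fold change was -0.08. Cd74, the substrate of cathepsins S and L, averaged 26150.2 ± 5966 CPM in WT against 18461 ± 6187 CPM in MUT. Per kb of merged exons its lowest library, at 7495 CPM per kb, lay above the highest protease value, 235 CPM per kb for Ctsz. Its log2 fold change was -0.50 (SE 0.30, the smallest p of the list, 0.12 unadjusted), and ran from -0.78 without MUT library 1 to -0.31 without WT library 1 and -0.29 without MUT library 3. H2-DMa, a chain of the peptide exchange factor, measured 224 ± 53.7 CPM in WT against 185 ± 55.1 CPM in MUT.

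Leukocyte markers were counted at levels that varied by library, and leukocytes are rich in Ctss, Ctsb, Ctsd and Ctsz. The 17 dendritic cell and macrophage markers summed to 816, 1515 and 809 CPM in WT libraries 1, 2 and 3 and to 793, 1938 and 641 CPM in MUT. Both libraries numbered 2 were highest in this sum, and the same 2 were the highest of their genotype for Ctss, Ctsd and Ctsh. Ctsb and Ctsz did not share that order: Ctsb was highest in library 1 in WT and in library 2 in MUT, and Ctsz was highest in library 2 in WT while MUT library 2 was the lowest of all 6. MUT library 3 had the lowest sum and the second highest Ctss. Of the 17, 0 passed edgeR's test, 7 were fitted above 0, and Cx3cr1, Clec9a and Siglech were at 0 in at least 1 library. Lyz2 measured 518 ± 179 CPM in WT against 505 ± 126 CPM in MUT, and Itgax 0.33 to 5.75 CPM. The sum is unweighted, so Lyz2 made up a large part of it. Adgre1, the macrophage gene with the smallest p of these (0.053 unadjusted), measured 30.1 ± 16.0 CPM in WT against 7.33 ± 5.30 CPM in MUT without overlap. It was the 1 of the 17 markers whose genotypes did not overlap, where 9.35% of all genes tested did not. Thymocyte markers (11 genes, 0 past the test) summed to 349, 539 and 206 CPM in WT libraries 1 to 3. In MUT they summed to 228, 752 and 120 CPM. The libraries numbered 2 were thus highest of their genotype for thymocyte markers too. The same held for the cortical markers (1248 and 1569 CPM) and the mitochondrial share (18.9% and 21.3%). Both were lowest for the 8 medullary markers (3152 and 3244 CPM). WT library 2 was not the highest for the fibroblast, endothelium or B cell markers. The part of leukocytes in the cathepsin values was not tested.

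To describe which genes moved most like Ctsl, Ctss and Prss16, log2(CPM + 1) was centred on each gene's mean over the 6 libraries and the root-mean-square difference from the protease was taken over 12736 genes with at least 5 CPM on average. Nearest to Ctsl were Akap8l (0.13), Acsl4 (0.14) and Ndufv3 (0.19). Closest to Ctss were D430042O09Rik (0.12), Ccdc33 (0.14) and Katnal1 (0.18), and to Prss16 Zfp397 (0.10), Nt5dc3 (0.12) and Trak2 (0.15). None of these is a protease or lysosomal gene of the lists used here, and with 6 libraries and so many candidates such near matches are a description only.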

How the data were processed

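The authors deposited raw counts of reads per Ensembl gene ID, 1 column per library, and did not normalize them. GRCm38, DESeq2 1.26.0 and STAR 2.4.2a are named, without a role, per the submitters' processing notes. Which program, annotation and strand setting made the counts is not given in the sources used here. Per the labels' protocols, cDNA was made by Nugen Ovation amplification and libraries with Nextera XT. No molecular identifiers are described, so floors cover only counting error.

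Symbols were matched for 42548 IDs, and positions and lengths are those of GENCODE M21 on GRCm38. edgeR 4.0.16 (R 4.3.3) was run with TMM factors, filterByExpr and robust quasi-likelihood tests with genotype as the only term, on 17172 genes, and 95% intervals are unadjusted, from the SE and edgeR's degrees of freedom. It was tested on simulated data in which the planted changes were far larger than any fitted for the 9 proteases, so smaller changes were not examined. Groups and replicate numbers came from sample titles. Members, lists and tests were chosen with earlier results of these data known. Beside the 9 proteases, genes were named by role and as the smallest p of a list. The smallest p is not given for the cortical, thymocyte, fibroblast, endothelium and B cell markers. Other genes were chosen after their values were seen. The symbols Csta2 and Csta3 had no match, and Ccl21a, with 2 IDs, was left out. Alternatives were other normalizations, filters, DESeq2 1.42.0, limma-voom 3.58.1, the replicate block, other lengths and library sizes, 0.5 added counts and each library left out. One gene of the lysosomal list is not reported here.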

Additional observations from a re-analysis of the deposited data

How the results depend on the processing

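The count of 0 proteases called held under every alternative run. Over all genes the count was 0 with limma-voom, upper-quartile scaling, size factors from DESeq2, a stricter filter on counts and with each library left out (range 0 to 0), but 73 without a filter on low counts (31 higher, 42 lower), 116 with DESeq2 (78 higher, 38 lower) and 1, Ccl5, with the replicate block; the cause was not tested. For the 9 proteases, 115 of 117 alternative log2 fold changes kept their sign. Both that turned were of Ctsb, whose values ran from -0.29 to 0.35 over the libraries left out (-0.13 without WT library 3). With libraries left out in turn the summed cathepsin difference ran from -0.30 to 0.093 (without WT library 2), the Ctsl to Ctss ratio from -0.56 to 0.78 (0.54 without MUT library 3, 0.78 without WT library 1), Prss16 to Ctsl from -0.37 to 0.75 (-0.0078 without MUT library 3) and Cst3 to cathepsins from -0.079 to 0.41 (-0.0038 without WT library 1). Among partner genes, alternatives chosen after seeing the data turned the sign of Cst3 (-0.47 to 0.47, with -0.035 in limma-voom, -0.19 without WT library 1 and -0.061 without WT library 3), Cstb (-0.66 to 0.11, with 0.0055 without MUT library 3), Serpina3g (-0.22 to 0.81, with -0.12 without WT library 3 and -0.16 without MUT library 1) and Ifi30 (-0.42 to 0.11, with 0.086 without WT library 2 and 0.056 without MUT library 1).

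Libraries with the same number also share a code in their source names, but nothing in the labels states what the code or number stands for. Deviations from the group means correlated at 0.10, 0.059 and 0.13 within the 3 pairs of equal number, and 6 of 6 correlated best with their own number. These 6 matches are not independent, since the deviations within a genotype cancel for each gene, and no chance level was computed. With the replicate block Ctsl was at 0.54 (SE 0.29) and Prss16 at 0.80 (SE 0.75), and 0 of 9 proteases were called. Against the fit without the block, the SE fell for Ctsb, Ctsc, Ctsd, Ctsh, Ctsl and Ctss and rose for Ctsk, Ctsz and Prss16. Among partner genes, the block lowered the SE of Cd74 from 0.30 to 0.14 and that of Atp6v0e from 0.43 to 0.31. Both kept an adjusted p of 0.99996 in edgeR's test. The SE of Ctla2a, Lgmn and Vps29 rose. The SEs and intervals given above are from the fit without the block. Between libraries of equal number, MUT was above WT in 3 of 3 for Ctss and Ctsl and below in 3 of 3 for Ctsd and Ctsh, with mixed directions for the other 5 genes. By pairs, the summed cathepsin difference of -0.13 had an exact sign-flip p of 0.25, the smallest that 3 pairs allow. With 3 libraries a group, changes within the intervals given could not be told from none.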

Other observations

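Rodents carry a cluster of placental cathepsin genes on the chromosome of Ctsl, and mTEC are known to transcribe genes of many tissues at low frequency. Of 9 such genes (Ctsj, Ctsm, Ctsq, Ctsr, Ctsll3, Cts3, Cts6, Cts7 and Cts8), 1, Ctsq, passed the filter on low counts. Where they were counted, most reads came from a single library. Cts7 had 326 of its 334 counts in WT library 2 (97.6%), Cts6 had 201 of 210 in WT library 3 (95.7%), Ctsll3 had 91 of 104 in WT library 3 (87.5%) and Ctsj had 138 of 167 in MUT library 2 (82.6%). Ctsq was counted in all 6 libraries, with 93 of 172 counts in MUT library 3. Ctsr had 32 counts in all, Cts3 had 2 and Cts8 had 1, and Ctsm had 0 in each library, which allows up to 3 counts per library. These genes are close copies of one another, and how the counting treated reads that match several of them is not given in the sources used here, so their counts are uncertain. The neutrophil protease gene Ctsg had 146, 0 and 119 counts in WT libraries 1, 2 and 3 and 2, 0 and 0 in MUT, and did not pass the filter.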
